A study of Mus musculus with 16 samples.

Results

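The 8 genes Spi1, Cebpa, Cebpb, Cebpd, Cebpe, Cebpg, Egr1 and Egr2 encode transcription factors of the myeloid lineages. They were chosen by name, as members of 3 families with known roles in myeloid cells, from the 21853 protein-coding genes of the GENCODE M21 annotation of the mouse genome (build mm10), and all 8 were found there. The rule uses names and positions and no measured value, although earlier results of these data were known when it was set. Histone marks were described in 2 spaces around each gene. The promoter was 1 kb on either side of any start site of a coding transcript, and the gene window was the gene body with 5 kb on either side.

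Spi1 encodes PU.1, an ETS factor needed for the formation of macrophages, granulocytes and lymphocytes. C/EBPα, the product of Cebpa, directs stem and progenitor cells toward granulocytes and monocytes, and C/EBPε acts later in granulocyte maturation. C/EBPβ and C/EBPδ take part in granulocyte production under stress and in the acute response to inflammation, whereas C/EBPγ dimerises with other C/EBP proteins and is often described as an inhibitor of them. EGR1 and EGR2 are zinc finger factors of the immediate early response that act with PU.1 in the macrophage lineage, and EGR1 has also been linked to the quiescence of stem cells.

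Hematopoietic stem cells (HSCs) of bone marrow were sorted from C57BL/6 mice by the surface markers CD150+ CD48- CD34- Flt3- within the IL-7- Lin- and c-kit+ Sca-1+ fraction, at 10 weeks (young) and at 20 months of age (aged). Chromatin immunoprecipitation and sequencing (ChIP-seq) was carried out for H3K4me3, a mark of active and poised promoters, and for H3K27me3 and H2AK119ub1, the marks set by Polycomb repressive complexes 2 and 1. The labels give 2 libraries for each of the 3 marks and each age and 2 input libraries for each age, 16 in 8 groups. The mice carried no transgene or deletion that the labels name, and how many animals stood behind 1 library is not given for this assay.

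Peaks were available as 1 pooled list for each mark and age, so 6 lists were used and there were no replicate values. Every difference between young and aged HSCs given here is a difference between 2 lists and was not tested. A peak that is not listed means that the pooled signal stayed under the threshold of the peak caller, not that the mark was absent. ChIP of sorted cells averages over many cells, so that a mark in all cells and a stronger mark in some of them cannot be told apart, and a pair of marks at a gene may lie in different cells.

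The lists held between 2593 peaks (young H2AK119ub1) and 63142 peaks (young H3K27me3). In aged HSCs the H3K4me3 list was shorter (6723 against 11371 peaks), the H3K27me3 list also (20419 against 63142), and the H2AK119ub1 list longer (17768 against 2593), and counts for the myeloid factor genes are read with these lengths in view. Of 10 marker genes of HSCs, 7 had H3K4me3 at a promoter in each list, and 6 had it in both. Ly6a and Slamf1, which encode Sca-1 and CD150 of the sorting gate, had none. Kit had it in aged HSCs only and Gata2 in young HSCs only. Of 7 neutrophil and monocyte markers, 1 had H3K4me3 in young HSCs and 0 in aged HSCs. The counts were 1 and 1 of 4 B cell markers, 0 and 0 of 4 T cell markers, 2 and 0 of 4 erythroid markers, 0 and 0 of 3 megakaryocyte markers and 1 and 1 of 4 markers of marrow stroma and endothelium.

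The DNA under the marks is shown first for the segments on which the results below turn, read from the mm10 genome on the strand of the gene, with CpG dinucleotides in capitals. The first segment is the part of the Cebpa promoter that was listed for H3K4me3 at both ages (chr7:35118916-35119136, 221 bases), upstream of the Cebpa start site and in an intron of the antisense gene Gm45091.
Cebpa H3K4me3: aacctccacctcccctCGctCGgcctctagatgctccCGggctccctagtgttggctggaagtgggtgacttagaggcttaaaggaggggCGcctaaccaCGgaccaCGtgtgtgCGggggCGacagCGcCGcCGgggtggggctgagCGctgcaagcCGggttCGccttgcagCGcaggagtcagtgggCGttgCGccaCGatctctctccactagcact
The next comes from the intron of Egr2 where H3K4me3 was listed at both ages (chr10:67536963-67537262, 300 bases around the middle of the shared part).
Egr2 H3K4me3: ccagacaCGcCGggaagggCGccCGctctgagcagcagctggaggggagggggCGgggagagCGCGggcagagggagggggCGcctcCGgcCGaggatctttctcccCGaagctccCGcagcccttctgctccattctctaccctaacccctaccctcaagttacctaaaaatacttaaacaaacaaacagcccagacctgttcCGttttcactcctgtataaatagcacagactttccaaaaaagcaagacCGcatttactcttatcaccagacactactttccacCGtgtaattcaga

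A pair of segments just upstream of the first Egr2 start site shows the sequence under the Polycomb marks. The whole of the first (chr10:67534456-67534692, 237 bases) lay in young and aged H3K27me3 and in aged H2AK119ub1.
Egr2 Polycomb: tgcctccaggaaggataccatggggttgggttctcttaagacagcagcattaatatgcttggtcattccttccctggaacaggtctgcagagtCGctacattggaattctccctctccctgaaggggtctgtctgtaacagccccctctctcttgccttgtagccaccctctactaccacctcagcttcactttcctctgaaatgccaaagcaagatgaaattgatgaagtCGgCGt
The other (chr10:67535028-67535227, 200 bases) lay in H2AK119ub1 at both ages and in young but not aged H3K27me3.
Egr2 H2AK119ub1: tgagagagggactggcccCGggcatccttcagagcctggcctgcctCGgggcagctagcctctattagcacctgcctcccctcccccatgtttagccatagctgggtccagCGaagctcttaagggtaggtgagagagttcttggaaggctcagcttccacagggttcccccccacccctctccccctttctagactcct

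The last pair shows the single peak near Cebpb, listed for aged H3K4me3 past the end of the gene (chr2:167690460-167690697, 238 bases, intergenic), and, for contrast, the 250 bases upstream of the RefSeq start site of Cebpg (chr7:35056567-35056816, minus strand), the gene without a peak in any list.
Cebpb H3K4me3: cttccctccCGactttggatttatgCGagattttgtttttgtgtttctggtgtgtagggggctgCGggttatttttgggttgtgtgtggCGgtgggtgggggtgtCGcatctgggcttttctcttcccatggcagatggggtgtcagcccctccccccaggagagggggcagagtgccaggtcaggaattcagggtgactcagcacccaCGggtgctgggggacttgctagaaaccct
Cebpg upstream: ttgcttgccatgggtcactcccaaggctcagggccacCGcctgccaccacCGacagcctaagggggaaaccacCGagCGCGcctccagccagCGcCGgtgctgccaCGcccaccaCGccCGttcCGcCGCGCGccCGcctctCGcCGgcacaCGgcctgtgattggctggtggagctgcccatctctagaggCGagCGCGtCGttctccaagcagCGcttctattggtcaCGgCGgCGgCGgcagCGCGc

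CpG dinucleotides were counted and set over the number that the base content of a segment would lead to (observed over expected CpG). This ratio was 0.748 in the Cebpa segment, with 18 CpG and 66.1% G and C bases, and 0.67 in the intronic Egr2 segment. The median was 0.604 over young and 0.619 over aged H3K4me3 peaks. The Cebpb peak was poorer in CpG, with a ratio of 0.323. The pair of Egr2 segments under the Polycomb marks had ratios of 0.205 and 0.166, with 3 CpG each, beside medians of 0.178 and 0.206 over young and aged H3K27me3 regions and of 0.236 and 0.24 over young and aged H2AK119ub1 regions. The unmarked Cebpg segment was the richest of the 6, with a ratio of 0.942 and 29 CpG. High CpG content thus stood both under H3K4me3 and at a gene where none was listed.

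In the 35 peaks that fell in the 8 gene windows, H3K4me3 was found at the promoters of Cebpa, Egr1 and Egr2 at both ages, H3K27me3 at those of Cebpa and Egr2 in young HSCs and of Egr2 alone in aged HSCs, and H2AK119ub1 at Egr2 in young HSCs and at Spi1, Cebpa and Egr2 in aged HSCs. Cebpb, Cebpd and Cebpe had peaks in the gene window but none at a promoter. Cebpg had no peak in any of the 6 lists. The map of peaks around each gene shows how far the genes of 1 family differed.

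**Figure D1:**
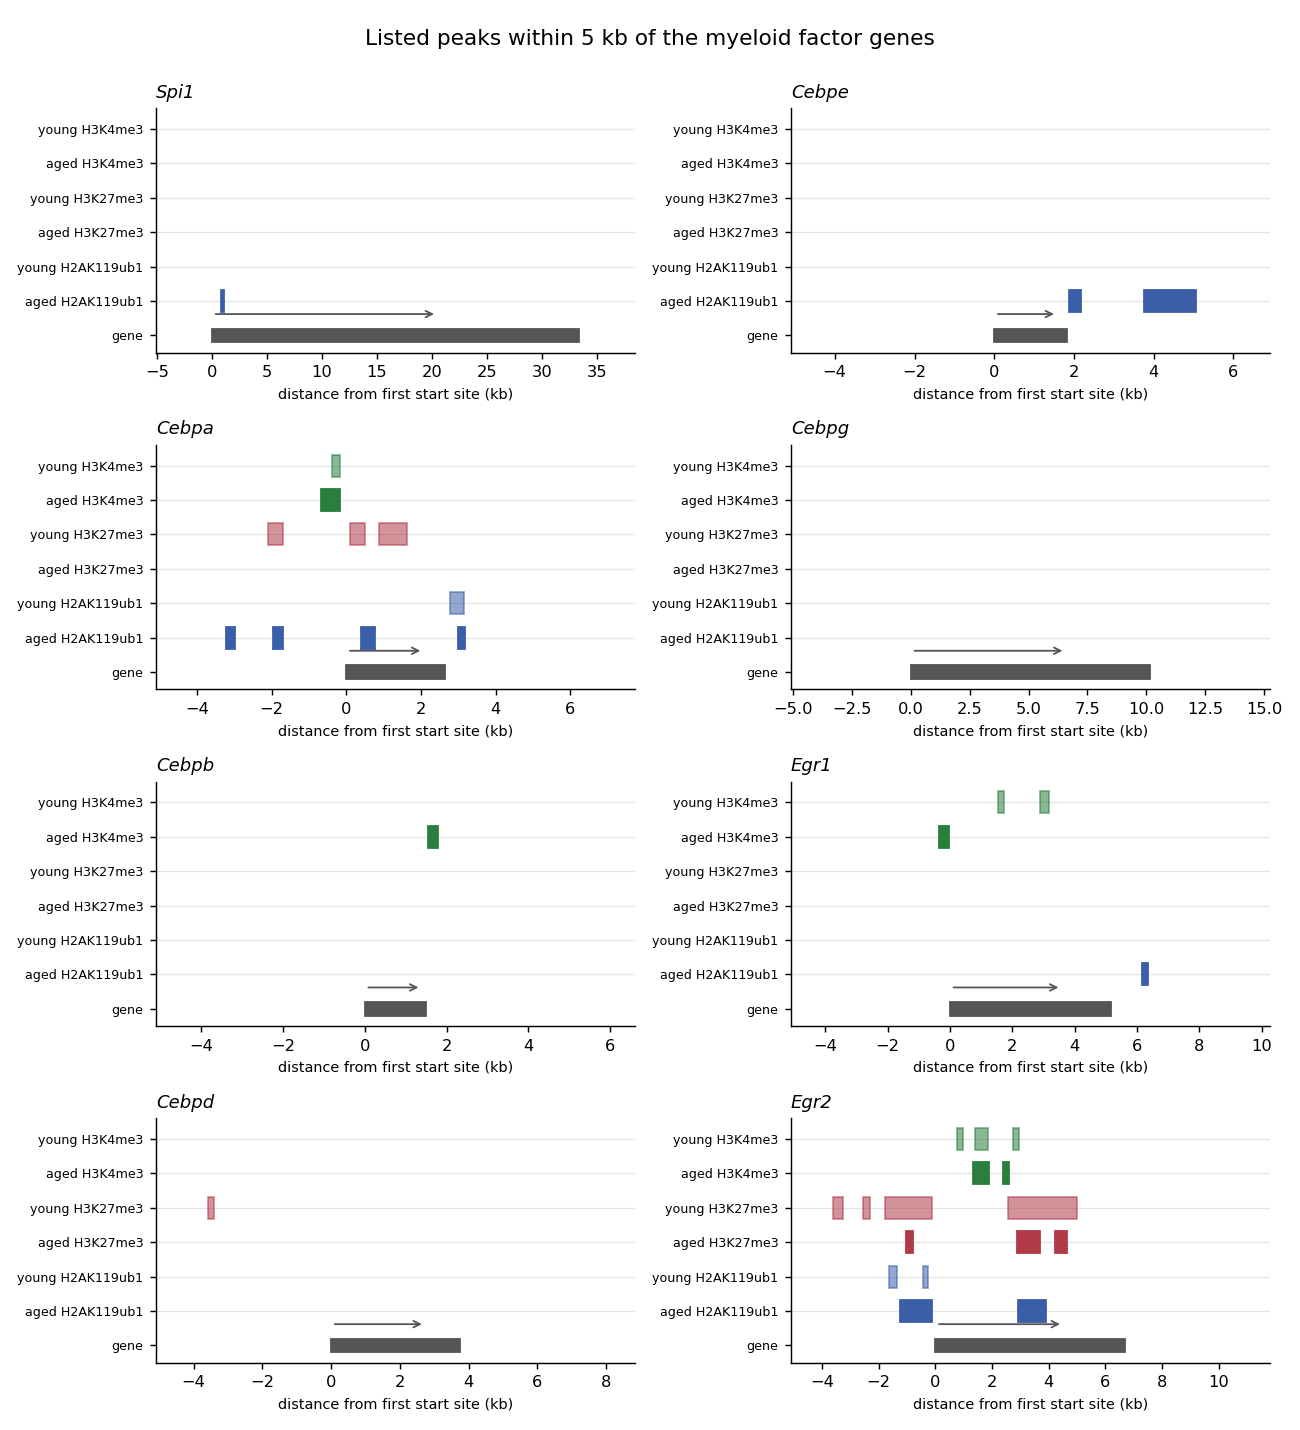
Listed peaks in the window of each of the 8 genes. The horizontal axis gives the distance from the first start site in kb, in the direction of transcription (arrow), the grey bar is the gene, and each row of boxes is 1 list (pale, young; full colour, aged). Egr2 carries all 3 marks at both ages, Cebpa carries H3K27me3 in young HSCs only, and Cebpg has no box.

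At promoters, H3K4me3 was listed for 3 of the 8 genes in young HSCs, against 34.3% of all 21853 protein-coding genes, and for 3 in aged HSCs, against 23.7%. The same 3 genes, Cebpa, Egr1 and Egr2, had it at both ages, as did 17.9% of all genes. H3K27me3 lay at the promoters of 2 genes in young HSCs (16.5% of all genes) and of 1 in aged HSCs (8.58%). H2AK119ub1 lay at 1 promoter in young HSCs (2.1% of all genes) and at 3 in aged HSCs (14.6%). With 8 genes, 1 gene is 12.5% of the set, and several of these counts stand within 1 gene of the share of all genes.

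H3K4me3 and H3K27me3 together were first described at developmental genes as a poised state. Both marks were listed within 1 kb of a start site of Cebpa and Egr2 in young HSCs, 2 of 8 against 3.13% of all genes. In aged HSCs only Egr2 of the 8 genes had both, against 0.901% of all genes. The peaks of the 2 marks shared no base at Cebpa in young HSCs or at Egr2 in aged HSCs. Whether these promoters are in a poised state was not tested.

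The wider gene windows gave H3K4me3 at 3 genes in young HSCs (40.6% of all genes) and at 4 in aged HSCs (29%), with Cebpb added. Both ages had it at 3 genes, against 23% of all genes. H3K27me3 was found in the windows of Cebpa, Cebpd and Egr2 in young HSCs (27.8% of all genes) and of Egr2 in aged HSCs (16.5%). H2AK119ub1 was found in 2 windows in young HSCs, those of Cebpa and Egr2 (5.99% of all genes), and in 5 in aged HSCs, those of Spi1, Cebpa, Cebpe, Egr1 and Egr2 (29%). This direction rested on the longer aged list. With the 2593 peaks of highest −log10 q-value at each age, the aged mark was in 1 window (Spi1) against 2 in young HSCs and at 1 promoter instead of 3, and with the 2593 widest it was in 2 windows at each age and at 1 promoter. A window with no peak of any list was seen for 1 gene, Cebpg, and for 31.6% of all genes. The windows of the 8 genes were short, with a median of 14.5 kb against 27.4 kb over all genes.

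**Figure D2:**
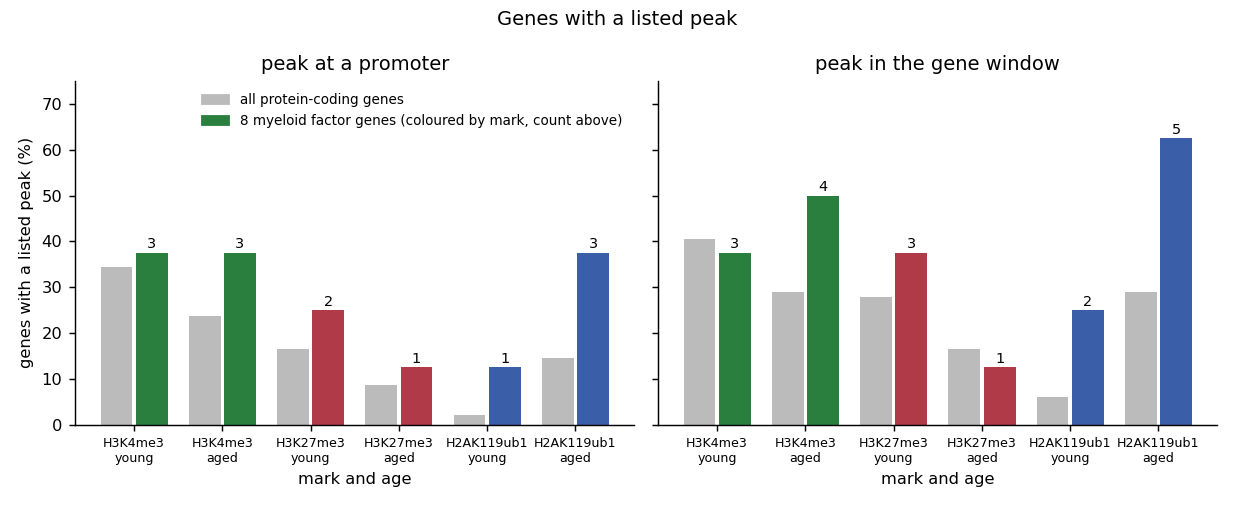
Percent of genes with a listed peak at a promoter (left) or in the gene window (right), for each mark and age. Grey bars are all 21853 protein-coding genes and coloured bars the 8 myeloid factor genes, with their count above. The coloured bar for H2AK119ub1 in the window stands at 2 genes for young HSCs and at 5 for aged HSCs, and at 2 and 1 when both lists are cut to the same number of peaks by −log10 q-value.

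Spi1 lies on the plus strand (chr2:91082390-91115756) and is the longest of the 8 genes, with 3 start sites of coding transcripts. A single peak fell in its window of 43367 bp. This was an aged H2AK119ub1 region of 232 bp (chr2:91083238-91083469), 848 to 1079 bp past the first start site, in an intron. Its fold enrichment over background was 4.08 and its −log10 q-value 3.29, which put its fold at the 98.2th percentile of the aged H2AK119ub1 list. Thus the gene had the least covered window of the 7 genes with a peak, 0.535% of it, but the strongest H2AK119ub1 region among the 13 listed for the 8 genes. The nearest young H2AK119ub1 region was 196 kb from the start site. H3K4me3 was not listed in the Spi1 window, and the nearest such peak was 12.2 kb upstream in young HSCs and 27.9 kb upstream in aged HSCs, both at other genes. Aged H2AK119ub1 as the only promoter mark was shared with 567 other protein-coding genes. For Spi1 this call rested on the 1 kb limit, since the region began 848 bp from the nearest coding start site. With the narrower promoter tried, aged H2AK119ub1 was at 2 of the 8 genes instead of 3, and Spi1 had no promoter mark.

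Cebpa (chr7:35119293-35121928, plus strand) is a short gene, 1 of its annotated transcripts being a single exon. H3K4me3 was listed upstream of it at both ages. The young peak spanned 221 bp, from 377 to 157 bp before the start site, with a fold enrichment of 4.03 and a −log10 q-value of 4.42, close to the middle of its list (47.1th percentile of fold). The aged peak spanned 525 bp (chr7:35118612-35119136), from 681 to 157 bp before the start site, with a fold of 5.75 and a −log10 q-value of 8.22, at the 97.9th percentile of its list. It ended at the same base as the young peak and held all of it. The start of Gm45091, an antisense transcript, is 469 bp away from both peaks, so that this H3K4me3 cannot be assigned to either gene alone.

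Reads were recovered from the fold and the p-value for the H3K4me3 peaks. The summit of the young Cebpa peak held 19 reads (exact Poisson 95% interval, 11.4 to 29.7) over a background of 3.96, and that of the aged peak 25 reads (16.2 to 36.9) over 3.52. These intervals cover counting error only, and they overlap.

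H3K27me3 was listed for Cebpa only in young HSCs, in 3 regions that covered 1553 bp or 12.3% of the window. One lay 2093 to 1694 bp before the start site (2.85-fold). The others spanned 409 bp (chr7:35119395-35119803, 2.97-fold) and 744 bp (chr7:35120177-35120920, 3.48-fold) over the coding exon and UTRs, and the last was the strongest, at the 84th percentile of its list. The nearest aged H3K27me3 region was 71.3 kb from the start site.

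H2AK119ub1 at Cebpa was listed in 1 region in young HSCs, 2788 to 3165 bp past the start site (378 bp, 3.12-fold), outside the promoter. In aged HSCs there were 4 regions that covered 1090 bp, with folds of 2.93, 2.94, 3.13 and 3.26. One of them, of 372 bp (chr7:35119693-35120064), lay in the coding exon within the promoter, and another overlapped the young region by 177 bp. Of the 4, 1 lay wholly (276 bp) and 1 partly (111 bp) over DNA that had been listed for H3K27me3 in young HSCs. Their folds stood at the 5.41th, 6.02th, 36.1th and 54.8th percentiles of the list. The set of promoter marks seen at Cebpa (H3K4me3 at both ages, young H3K27me3, aged H2AK119ub1) was shared with 61 other protein-coding genes.

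Among the other C/EBP genes, no promoter was marked. The single peak near Cebpb (chr2:167688915-167690418, plus strand) was the aged H3K4me3 peak printed above, 1545 to 1782 bp past the start site and thus beyond the end of this gene. Its fold was 4.86, its −log10 q-value 5.83, and its summit held 21 reads (95% interval, 13 to 32.1) over a background of 3.52. It lay 480 bp from a transcript start of the lincRNA A530013C23Rik, nearer than to the start of Cebpb. A transcript start of the protein-coding gene Tmem189, over transcripts of any type, was also nearer, at 638 bp. In young HSCs the nearest H3K4me3 peak was 27.7 kb upstream of Cebpb, in an intron of Tmem189 and of Gm20431.

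Cebpd (chr16:15887286-15891031, plus strand) had a single young H3K27me3 region of 200 bp, 3598 to 3399 bp before the start site, with a fold of 3.05 and a −log10 q-value of 1.73. In aged HSCs nothing was listed in its window. The nearest H3K4me3 peak was 23.5 kb away in young and 23.6 kb away in aged HSCs.

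Cebpe (chr14:54710360-54712174, minus strand), the granulocyte maturation factor, had peaks in aged H2AK119ub1 only. They lay downstream of the gene and were 293 bp (chr14:54710007-54710299, 3.21-fold) and 1308 bp wide (chr14:54707107-54708414, 3.3-fold). Together they covered 13.6% of the window, and the wider one was the widest H2AK119ub1 region near any of the 8 genes. The nearest young H2AK119ub1 region was 402 kb from the start site.

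Cebpg (chr7:35046422-35056573, minus strand) lies on the same chromosome as Cebpa, upstream of it and on the other strand. With no peak in its window of 20152 bp, the nearest region of any list was aged H2AK119ub1, 19.5 kb past its start site. H3K4me3 was 62 kb away or more at both ages. The 4 C/EBP genes without a promoter mark shared this with 44.2% of all protein-coding genes.

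Of the EGR genes, Egr1 (chr18:34859823-34864984, plus strand) had H3K4me3 at both ages, but in different places. In young HSCs a peak of 213 bp lay 1535 to 1747 bp past the first start site, next to a second start site of the gene, with a fold of 3.63 and 17 reads at the summit (95% interval, 9.9 to 27.2) over a background of 3.96. Another of 283 bp, farther into the coding exon, had a fold of 2.59 and also 17 reads, but over a background of 5.94. The single aged peak of 320 bp lay 357 to 38 bp before the first start site, with a fold of 3.76 and 16 reads (9.15 to 26) over 3.52. No base was shared between the ages. All 3 peaks were low in their lists, between the 2.22th and the 29.3th percentile of fold.

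No Polycomb mark was listed at the Egr1 promoters. The only such region in its window was aged H2AK119ub1 of 200 bp, 6144 to 6343 bp past the start site, with a fold of 3.35. H3K27me3 was 138 kb away in young and 139 kb away in aged HSCs. H3K4me3 at both ages without a Polycomb mark, as at Egr1, was seen at 3312 other protein-coding genes.

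Egr2 (chr10:67535475-67542188, plus strand, 6 start sites of coding transcripts) was the only one of the 8 genes with all 3 marks at a promoter at both ages, which it shared with 21 other protein-coding genes. Young HSCs had 3 H3K4me3 peaks. The summits held 23 reads (95% interval, 14.6 to 34.5) in the peak 756 to 966 bp past the first start site, 20 reads (12.2 to 30.9) in the intronic peak 1415 to 1860 bp past it, and 18 reads (10.7 to 28.4) in the peak 2741 to 2940 bp past it. Their folds were 4.48, 4.23 and 3.3.

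Aged HSCs had 2 H3K4me3 peaks at Egr2. One of 568 bp held the whole of the intronic young peak (446 bp), with a fold of 4.52 and 25 reads (16.2 to 36.9). The other of 209 bp lay over a start site in the UTR, with a fold of 5.08 and 22 reads (13.8 to 33.3), and no young peak overlapped it. The covered length was 857 bp in young and 777 bp in aged HSCs.

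**Figure D3:**
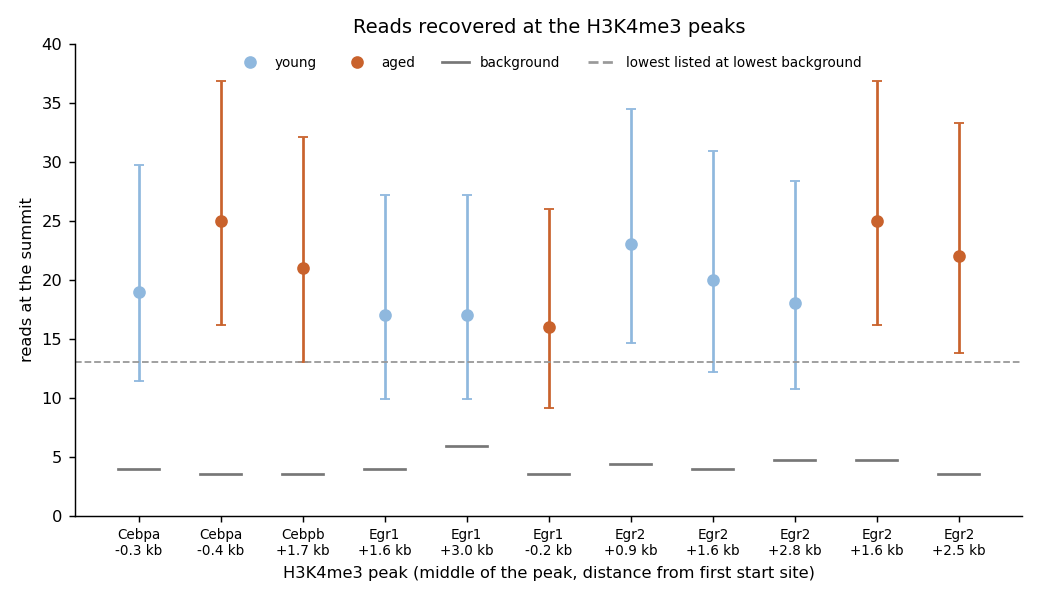
Reads at the summit of each H3K4me3 peak in the gene windows (vertical axis), with exact Poisson 95% intervals for counting error, in young (blue) and aged (orange) HSCs. Grey bars mark the background under each peak and the dashed line the lowest pileup listed where the background was lowest, 13 reads at both ages. The 11 peaks hold between 16 and 25 reads and their intervals all overlap.

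H3K27me3 around Egr2 fell in 2 blocks, 1 upstream of the first start site and 1 in the gene body, from an inner exon toward the last one. In young HSCs the upstream block held regions of 327, 272 and 1692 bp, the last from 1793 to 102 bp before the start site with a fold of 3.41. The downstream region spanned 2463 bp (chr10:67538026-67540488) and was the widest region of any list near the 8 genes, with a fold of 3.84 and a −log10 q-value of 3.71, at the 95.9th percentile of its list. In aged HSCs the regions were of 237 bp (3.47-fold), 784 bp (3.18-fold) and 394 bp (2.83-fold), each lying wholly inside a young region. Coverage of the window was 28.4% in young and 8.47% in aged HSCs.

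H2AK119ub1 at Egr2 lay in the same 2 blocks, but only the upstream one in young HSCs, and with the larger extent in the aged list. The young regions were of 261 bp (2.81-fold) and 200 bp (3.05-fold). The aged regions spanned 1128 bp (chr10:67534217-67535344, 3.18-fold) upstream and 994 bp (chr10:67538378-67539371, 3.26-fold) in the gene body, over the end of an exon and the start site of 1 further transcript. Both lay wholly within young H3K27me3, and 237 bp and 775 bp of them lay within aged H3K27me3. Coverage of the window was 2.76% in young and 12.7% in aged HSCs. Of the 3 young H3K4me3 peaks of Egr2, the one nearest the end of the gene lay wholly (200 bp) inside young H3K27me3, whereas no aged H3K4me3 peak overlapped an aged Polycomb region.

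Over the 8 windows, 145096 bp in all, H3K27me3 covered 6.51 kb in young and 1.42 kb in aged HSCs, and Egr2 and Cebpa held all but the 200 bp at Cebpd. As a share of the windows this was 4.48% and 0.975%, beside 2.16% and 0.561% for the windows of all protein-coding genes. The aged value was the lower for the 8 genes as for all genes. Shares of windows, here and for the other marks, were not matched for window length. The median window was 14.5 kb for the 8 genes and 27.4 kb for all genes.

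H2AK119ub1 covered 0.839 kb in young and 5.25 kb in aged HSCs (0.578% and 3.61% of the windows), beside 0.0663% and 0.527% for all genes. The difference of 4.41 kb depended on the length of the lists. With the 2593 peaks of highest −log10 q-value at each age it turned to -0.607 kb, and with the 2593 widest it was 2.59 kb. Of the aged H2AK119ub1 in the 8 windows, 47.8% lay over young H3K27me3 and 19.3% over aged H3K27me3, beside 49.8% and 26.4% for the whole aged list.

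H3K4me3 covered 1.57 kb in young and 1.86 kb in aged HSCs (1.08% and 1.28% of the windows), whereas all genes, with longer windows, had 0.386% and 0.205%. Counted by gene, the mark was in 3 of the 8 windows in young HSCs against 40.6% of all genes. In aged HSCs it was in 4 against 29%. The aged covered length was higher by 0.286 kb, a direction that turned when the gene bodies alone (-0.576 kb) or 10 kb flanks (-0.178 kb) were used. Cebpa and Cebpb had more covered length in aged HSCs and Egr1 and Egr2 less.

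**Figure D4:**
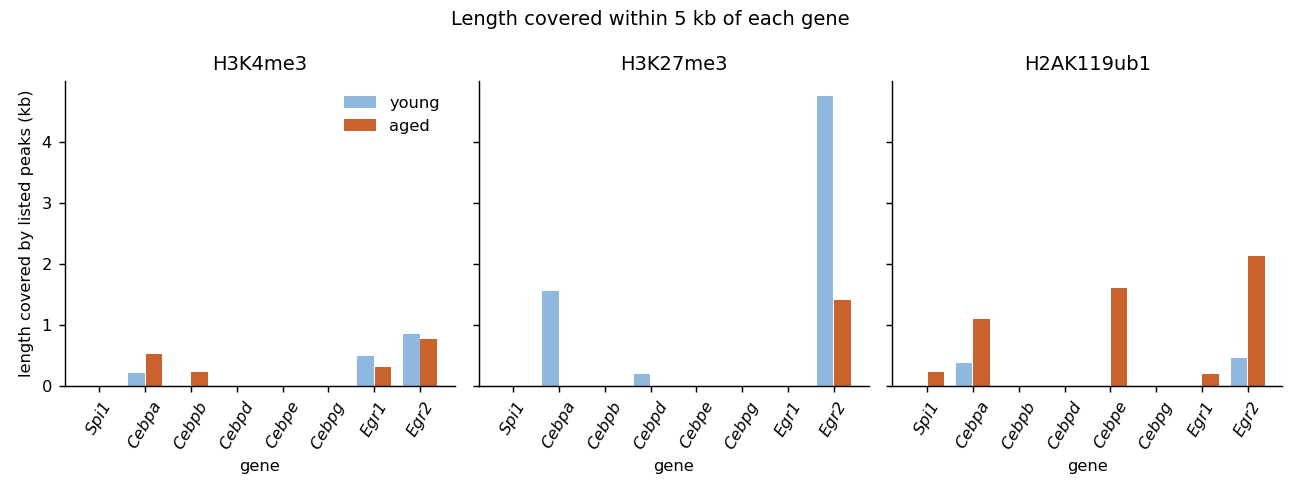
Length covered by listed peaks in the window of each gene (kb), by mark, in young (blue) and aged (orange) HSCs. Egr2 has 4754 bp of H3K27me3 in young and 1415 bp in aged HSCs, and 461 bp and 2122 bp of H2AK119ub1.

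Fold enrichment was set within each list, since the lists were made separately. The 6 young H3K4me3 peaks had a median fold of 3.83, below the list median of 4.04, and the 5 aged peaks a median of 4.86, above the list median of 4.2. For the Polycomb marks the medians stood near those of the lists. They were 3.23 against 3.1 for young H3K27me3 (8 regions), 3.18 against 3.13 for aged H3K27me3 (3 regions), 3.05 against 3.24 for young H2AK119ub1 (3 regions) and 3.23 against 3.22 for aged H2AK119ub1 (10 regions). The ranks spread over nearly the whole of the lists, as the plot of percentiles shows.

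**Figure D5:**
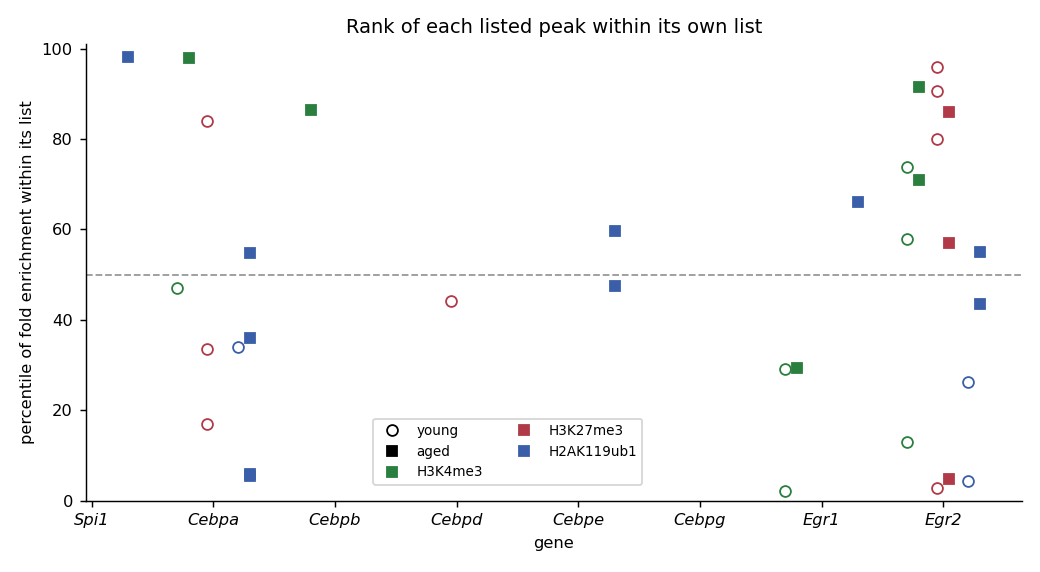
Percentile of the fold enrichment of each listed peak within its own list (vertical axis), by gene, for young (open circles) and aged (filled squares) HSCs, coloured by mark, with the list median dashed. The aged H2AK119ub1 region of Spi1 (98.2) and the aged H3K4me3 peak of Cebpa (97.9) stand highest.

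The table of RefSeq promoters on this genome (250 bases before to 50 after a start site) held 8 promoters of 4 of the genes, Cebpa, Cebpb, Cebpg and 5 for Egr2. All had a share of G and C bases above the median over all promoters, but the lowest, at Egr2, stood only at the 60.6th percentile. The share was 80.7% for Cebpb, at the 99.3th percentile of 32817 promoters, 71.7% for Cebpg, 67.3% for Cebpa and between 56% and 72% for Egr2, where the median over all promoters was 52.7%. Observed over expected CpG was 1.03 for Cebpb, 0.988 for Cebpg and 0.853 for Cebpa, and from 0.684 to 0.997 over the 5 promoters of Egr2, beside a median of 0.383. Genes with promoter H3K4me3 (Cebpa and Egr2) and without it (Cebpb and Cebpg) thus overlapped in this ratio.

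Motifs of the factors themselves were searched on both strands. The PU.1 motif GAGGAAGT (in 3.2% of the 32817 promoters), the C/EBP motifs TTGCGCAA (0.183%) and TTGCNNAA (10.8%, which takes in the first), the EGR motifs GCGTGGGCG (0.612%) and GCGGGGGCG (2.91%) and the cyclic AMP response element TGACGTCA (1.79%) were in none of the 8 RefSeq promoters of Cebpa, Cebpb, Cebpg and Egr2. The gene windows as a whole were not searched. TATAAA, the TATA box, was in 13.6% of all promoters and in those of Cebpa, 30 bases before the start site, and Cebpb, from base 22 of the transcript. The CArG box, the site of serum response factor, was in 1.63% of all promoters and in 4 of the 5 of Egr2, at 2 places, since 3 of these promoters overlap and share a single match. In the printed segments, GCGGGGGCG was found once, in the Cebpa segment from base 115 to base 123, and TATAAA once, in the intronic Egr2 segment from base 219 to base 224. These matches are letters only and say nothing of binding.

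Other genes of the myeloid program were counted at promoters, from a list of 40. H3K4me3 was listed for 16 of them in young HSCs, against 34.3% of all protein-coding genes, and for 15 in aged HSCs, against 23.7%. At both ages it was listed for 14, against 17.9%. H3K27me3 was listed for 8 in young (16.5% of all genes) and 1 in aged HSCs (8.58%). H2AK119ub1 was listed for 2 (2.1%) and 12 (14.6%). No mark was listed for 16 of the 40, as for 44.2% of all genes. Most of the marks were at the 19 regulators and partners. Among these, H3K4me3 was at 13 genes at each age, H3K27me3 at 7 and 1, and H2AK119ub1 at 2 and 9. Among 15 targets and effectors, such as the granule proteins of neutrophils, 12 had no mark at a promoter, and of 6 cytokine receptors 4 had none.

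The pattern of Cebpa, seen at 0.284% of all protein-coding genes, was also that of Klf4, a zinc finger factor of monocyte differentiation. That of Spi1, seen at 2.6% of all protein-coding genes, was also found at Id1, an inhibitor of basic helix-loop-helix factors. It was found too at the interleukin 6 receptor gene Il6ra and at Mpo, which encodes myeloperoxidase. The match to Spi1 held for the 1 kb promoter, since Spi1 had no mark with the narrower one tried. Of the 40 genes, 11 equalled Egr1, against 15.2% of all protein-coding genes. These were Myb, Jun, Fos, Nab1, Nab2, Trib1, Ddit3, Maf, Zeb2, Csf3r and Prtn3. They include Jun and Fos, immediate early genes like Egr1, and Nab1 and Nab2, which encode co-repressors of EGR proteins. None of the 40 had all 3 marks at both ages as Egr2 had, a pattern seen at only 0.101% of all protein-coding genes.

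Further genes of the list had a Polycomb mark in sets of marks that differed from those of all 8. Egr3 and Egr4, the other genes of the EGR family, had young H3K27me3 and no H3K4me3, and Egr4 also had aged H2AK119ub1. Irf8, a monocyte and dendritic cell factor, had H3K4me3 and H3K27me3 in young HSCs and H2AK119ub1 at both ages. Gfi1, a repressor active in granulocyte formation, had H3K27me3 at both ages with aged H2AK119ub1. Runx1 had H3K4me3 at both ages with aged H2AK119ub1, and Trib2, a regulator of C/EBPα breakdown, both of these marks in aged HSCs only. Id2 was marked in 5 of the 6 lists, all but aged H3K27me3. Cd14 had young H3K4me3, young H3K27me3 and aged H2AK119ub1.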

How the data were processed

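ChIP-seq peak lists of young and aged HSCs were analysed. The authors digested cross-linked chromatin with micrococcal nuclease and aligned single reads to mm10. Bowtie2 and MACS2 2.2.6 are named in the submitters' processing notes, and the caller used for these lists is not given in the sources used here. The deposited lists (narrow peaks for H3K4me3, broad regions for H3K27me3 and H2AK119ub1) give for each peak a fold enrichment over background as a ratio, the −log10 of the p-value and of the q-value, and a score, which is 10 times the −log10 q-value. In the format of MACS broad regions, which these lists share, such values are averages over the region. The score was not used further. The names of the lists say that replicates were pooled, and from the names of peaks it is not certain that both libraries entered each broad list.

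After scaffolds had been set aside, the peaks of chromosomes 1 to 19, X and Y were intersected with 54361 start sites of protein-coding transcripts (GENCODE M21) and with gene windows, at an overlap of 1 bp or more. GENCODE M21 and the RefSeq promoter and genome sequences are both on mm10 (GRCm38). The lists do not hold the number of sequenced reads. For H3K4me3, whole reads at the summit were recovered from the fold, (pileup + 1) / (background + 1), and the Poisson p-value, for 100% of the peaks, at a tolerance of 0.005 on the −log10 p-value. The overlap code and this recovery were tested on simulated data. Python 3.11.15, numpy 2.4.6, pandas 2.3.3, scipy 1.17.1, pysam 0.24.0, samtools 1.23.1 and matplotlib 3.10.9 were used.

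The genes, lists and alternatives were chosen with earlier results of these data known. All 8 genes were described with every peak in their windows. Other myeloid genes were named where a promoter carried a Polycomb mark or where the marks at promoters equalled those of a myeloid factor gene with at least 1 mark. One gene that this rule names is not reported here by name. Neighbouring genes were named where a peak lay within 1 kb of the start of any of their transcripts, coding or not. No test between the ages was made, since there was 1 list per mark and age. Alternatives were other promoter and window sizes, start sites of all transcripts, peaks counted by their midpoint, a −log10 q-value of at least 4, and lists cut to the same number of peaks at both ages, by −log10 q-value or, chosen after seeing the data, by width.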

Additional observations from a re-analysis of the deposited data

How the results depend on the processing

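No paired analysis was possible because the lists are pooled and carry no replicate numbers. Of 93 values under alternatives, 66 moved little, 24 moved and 3 turned in direction. When only peaks with a −log10 q-value from 4 were kept, all promoter and window counts for H3K27me3 and H2AK119ub1 were 0 at both ages and both length differences were 0 kb, since no such region near the 8 genes reached that value, while the H3K4me3 length difference was 0.662 kb. Under this cut H3K4me3 was no longer listed at Egr1 at either age, at a promoter or in its window. With the same number of peaks at both ages by −log10 q-value, aged H2AK119ub1 was at 1 promoter (Spi1) and in 1 window, the H2AK119ub1 length difference turned to -0.607 kb, and that of H3K4me3 was 0.982 kb. Young H3K4me3 was again not listed at Egr1. Taking the widest peaks instead, a choice made after seeing the data, left young H3K4me3 at 1 promoter (Egr2) and aged H2AK119ub1 at 1 promoter (Egr2) and in 2 windows (Cebpe and Egr2), with length differences of 1.13 kb for H3K4me3 and 2.59 kb for H2AK119ub1. Gene bodies alone had aged H3K4me3 at 1 gene, young H2AK119ub1 at 0 and aged H2AK119ub1 at 3, with length differences of -0.576 kb for H3K4me3, -2.44 kb for H3K27me3 and 1.6 kb for H2AK119ub1. A flank of 10 kb turned the H3K4me3 difference to -0.178 kb. Other promoter sizes, start sites of all transcripts and midpoints moved no count by more than 1.5 times. Even so, the narrower promoter left aged H2AK119ub1 at 2 promoters instead of 3, without Spi1. The H3K27me3 difference was negative wherever such regions were left. Leaving out a replicate was not possible with pooled lists. Where the H3K4me3 background was lowest, peaks under 13 reads were not listed, so weaker peaks could not be seen.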

Other observations

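Farther from the genes, to 50 kb beyond either end of the gene body, a group of H2AK119ub1 regions lay downstream of Cebpa at both ages. This search was made after the values near the genes had been seen. In young HSCs the regions were chr7:35153960-35154220 (3.21-fold) and chr7:35155411-35156008 (598 bp, 3.68-fold), 34.7 to 36.7 kb past the Cebpa start site. In aged HSCs there were 3 regions at or near this place, of 387 bp (3.08-fold), 996 bp (chr7:35155190-35156185, 3.25-fold) and 241 bp (2.99-fold), from 34.9 to 38.3 kb. Those of 387 bp and 996 bp overlapped young regions, the former only at its edge, and that of 241 bp overlapped none. All of these young and aged regions were intergenic, and the next protein-coding start site was that of Slc7a10, 28.8 kb or more away. Further aged regions lay 25.5 and 26.7 kb downstream, 20.5 kb upstream and 49.9 kb downstream of Cebpa. H3K4me3 and H3K27me3 were not listed anywhere from 5 to 50 kb around Cebpa at either age. Among the other genes, at most 2 H2AK119ub1 regions were listed at this distance for a given age, which was the case for Cebpe and Cebpg in aged HSCs, and 1 of those at Cebpg is the region 20.5 kb upstream of Cebpa. No such count was made for all protein-coding genes, so whether the number near Cebpa is unusual was not tested.

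Near Spi1, a young H3K4me3 peak of 520 bp (4.89-fold) lay 12.2 kb upstream, 34 bp from the start site of Slc39a13, and had no aged counterpart, whereas an aged H2AK119ub1 region of 252 bp (2.99-fold) lay 13.3 kb upstream of Spi1 within the same gene. A young H3K4me3 peak 13.7 kb past the start site of Egr2 (5.44-fold, −log10 q-value 8.49) lay 205 bp from the start of Ado and was not listed in aged HSCs. Upstream of Cebpd, at the start of Mzt2, 3 H3K4me3 peaks were listed in young HSCs (3.83-fold, 4.84-fold and 4.64-fold) and 2 in aged HSCs (4.86-fold and 3.82-fold), and the 3.83-fold young peak had no aged counterpart.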
